A study of Mus musculus with 6 samples.

Results

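The 10 genes described here drive or restrain the passage of a cell out of G1: the D-type cyclins Ccnd1, Ccnd2 and Ccnd3, the E-type cyclins Ccne1 and Ccne2, the cyclin-dependent kinases Cdk4, Cdk6 and Cdk2, the inhibitor Cdkn1b (p27) and the transcription factor E2f1. They were taken by name, all 10 matched 1 row of the authors' deposited comparison and 1 row of the deposited count table, and they are 10 of the 46078 genes of that table. Lingo3-/- mice were compared with wild type mice, both 2 months old and kept under naive conditions, with 3 libraries of RNA-seq per genotype and 6 in all. The RNA, depleted of ribosomal RNA and made into stranded libraries, came from cells washed off the colon to enrich epithelium. The labels do not give the strain, the sex, the design of the Lingo3 allele or whether each library is a separate animal, so p-values here speak only of the variation among these libraries, which may be technical.

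In mammalian cells, mitogens and Wnt signals raise D-type cyclins, which bind Cdk4 or Cdk6 and phosphorylate the retinoblastoma protein. Phosphorylation releases E2F factors, and these activate the E-type cyclins and the genes of DNA synthesis. Cyclin E with Cdk2 completes the step, while Cdkn1b binds and restrains cyclin E and cyclin A complexes of Cdk2 and also assembles with cyclin D complexes. In the colon this machinery works in the lower crypt, where stem and transit-amplifying cells divide, and Ccnd1 is a textbook target of Wnt signalling.

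Counts over genes ranged from 11868000 to 17200900 in the knockout libraries and from 25010600 to 28029600 in the wild type libraries, so the knockout libraries were shallower. The targeted gene had 2, 0 and 1 counts in knockout and 3, 3 and 1 in wild type, at or below a floor of 3 counts, so Lingo3 does not check the labels. Transcripts of the mitochondrial genome took 34.7 to 36.3% of the counts in knockout and 45.3 to 48.4% in wild type, and TMM factors, which scale libraries so that most genes do not differ, ran from 1.05 to 1.13 in knockout and from 0.856 to 0.948 in wild type. The sample label of wild type replicate 1 names DTT beside EDTA in the wash and those of the other 5 libraries EDTA alone, while the protocol shared by all 6 names both. Of 10 pan-epithelial markers none was at 0, and their summed level was 4779 to 5867 CPM (counts-per-million, each library rescaled by its TMM factor) in knockout and 4052 to 4975 CPM in wild type.

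Ccnd1 and Cdk4 rose in the knockout libraries, and the other 8 genes did not pass the test. An adjusted p under 0.05 over the 16856 genes tested with edgeR was required, a threshold passed in the higher direction by 9.43% of all genes and by 2 of the 10 described here. In the lower direction 5.97% of all genes passed and 0 of the 10. By DESeq2 and limma-voom 0 of the 10 were lower as well, beside 6.78% and 5.4% of all genes, and before adjustment edgeR put 0 of them past 0.05 in that direction, beside 14.5%. At an unadjusted p under 0.05, 6 of the 10 were past the threshold, all higher in knockout, beside 16.7% of all genes in that direction and 31.2% in either. The knockout libraries all lay above the wild type libraries for 5 genes (Ccnd1, Ccne1, Ccne2, Cdk4 and Cdk6), beside 19.7% of all genes, and for 0 they all lay below, beside 16%; in either direction the share was 35.6%. Over both directions 15.4% of all genes passed the adjusted threshold. The median log2 fold change of the 10 genes was 0.30, and that of all genes tested was -0.03.

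**Figure D1:**
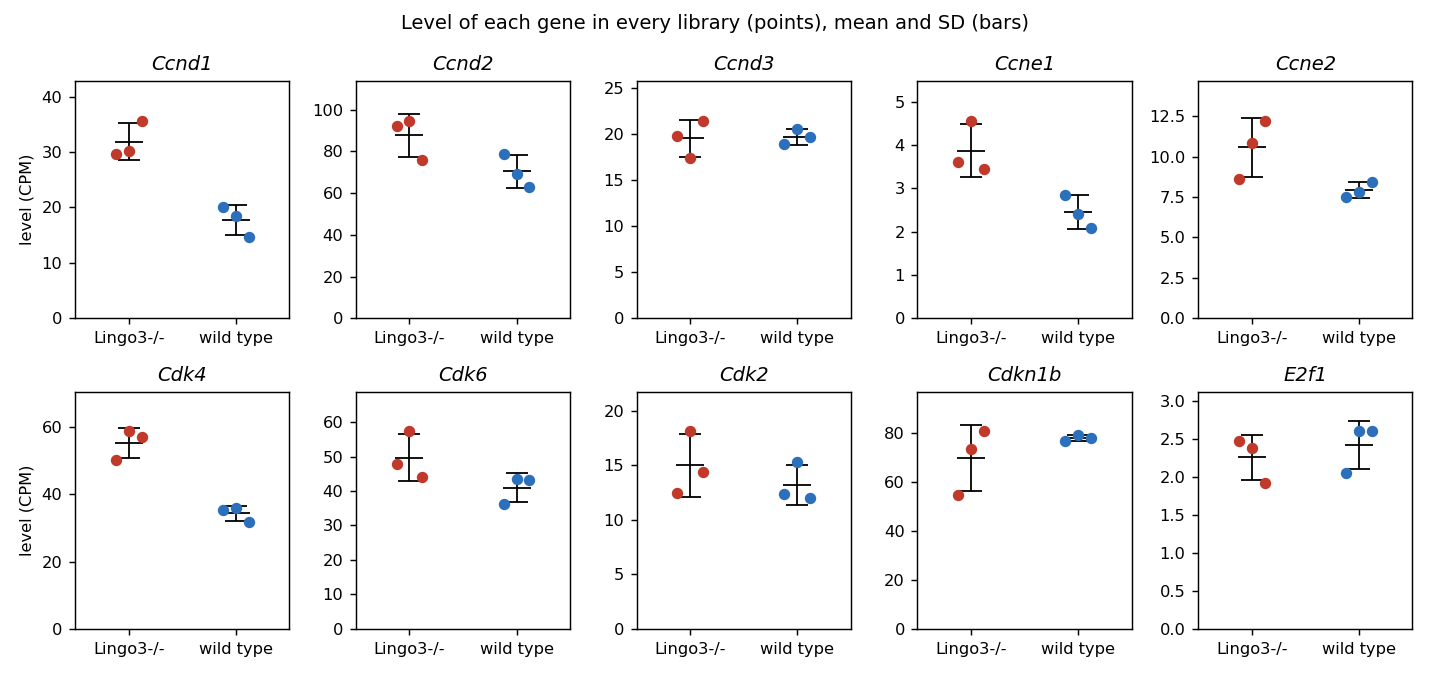
Level in CPM of each gene in the 3 Lingo3-/- and 3 wild type libraries (points), with the mean and SD (bars); every axis starts at 0. Ccnd1, Ccne1, Ccne2, Cdk4 and Cdk6 have all knockout points above all wild type points, and Cdkn1b has 1 low knockout library at 54.6 CPM.

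Among the D-type cyclins, which carry the growth signal to Cdk4 and Cdk6, Ccnd1 (ENSMUSG00000070348, chromosome 7 from 144929931 to 144939925, minus strand, GRCm38) changed most. Its level was 29.6, 30.2 and 35.7 CPM in knockout replicates 1, 2 and 3 and 20.01, 18.4 and 14.7 CPM in wild type replicates 1, 2 and 3. The lowest knockout library thus lay well above the highest wild type one. The fitted log2 fold change was 0.84 ± 0.13 (SE, 95% interval 0.57 to 1.12, adjusted p = 0.00236 by edgeR), which is 1.80-fold. The call held in all 16 alternatives of scaling, tool, filter, block and left-out library, with log2 fold changes of 0.64 to 1.13.

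Ccnd2 (ENSMUSG00000000184, chromosome 6 from 127125162 to 127152193) was the D-type cyclin with the highest level per length. It stood at 92.1, 94.8 and 76.1 CPM in knockout and at 79.0, 69.3 and 63.1 CPM in wild type, so that knockout replicate 3 fell below wild type replicate 1. Its log2 fold change of 0.32 ± 0.12 (SE, 95% interval 0.06 to 0.57) did not pass (edgeR adjusted p = 0.0841). Of the fits without single libraries, only that without wild type replicate 1, the library labelled with DTT, passed (edgeR adjusted p = 0.0367). Over these fits the log2 fold change ran from 0.261 to 0.428, with edgeR adjusted p up to 0.244. The part of the wash was not tested.

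Ccnd3 (ENSMUSG00000034165, chromosome 17 from 47505051 to 47599691) stood level between the genotypes. It had 19.7, 17.4 and 21.4 CPM in knockout and 18.8, 20.5 and 19.6 CPM in wild type, with the wild type values inside the knockout range. The log2 fold change was -0.02 with a 95% interval of -0.25 to 0.22 (edgeR adjusted p = 0.935), and its sign turned with the scaling (0.26 with library totals only).

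The D-type cyclins were also described as shares of their sum, without a test. A rise of Ccnd1 alone lowers the other shares. Per kilobase of exon the 3 genes summed to 18.3, 18.5 and 18.1 CPM in knockout and to 14.8, 13.6 and 12.1 CPM in wild type. Of this sum Ccnd1 made 34.3, 34.7 and 41.8% in knockout and 28.7, 28.7 and 25.8% in wild type. Ccnd3 made 12.3, 10.7 and 13.5% in knockout and 14.5, 17.2 and 18.6% in wild type, and Ccnd2 remained the largest share in every library, at 44.7 to 54.5% and 54.1 to 56.7%. For Ccnd1 and Ccnd3 the genotypes did not overlap, and for Ccnd2 they did. The percentages depend on the length used, here the union of exons. Averaged over the 6 libraries, Ccnd3 stood at 2.23 CPM per kilobase by that length and at 5.08 by the longest transcript. Ccnd1 stood at 5.26 and 6.62, and Ccnd2 at 8.40 and 12.5.

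Ratios of counts within a library do not depend on how libraries are scaled. Reads of Ccnd1 per read of Ccnd3 were 1.499, 1.74 and 1.66 in knockout and 1.06, 0.894 and 0.746 in wild type, a difference in mean log2 ratio of 0.87. Reads of Ccnd1 per read of Ccnd2 were 0.321, 0.319 and 0.469 in knockout and 0.253, 0.265 and 0.232 in wild type, a difference of 0.54, which was 0.357 without knockout replicate 3. Neither pair of groups overlapped, and how often ratios of other gene pairs do not overlap was not computed. The 2-sided exact permutation p was 0.1 for both, the smallest that 3 against 3 libraries can give, and 0.12 after Benjamini-Hochberg adjustment over the 6 ratios computed.

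**Figure D2:**
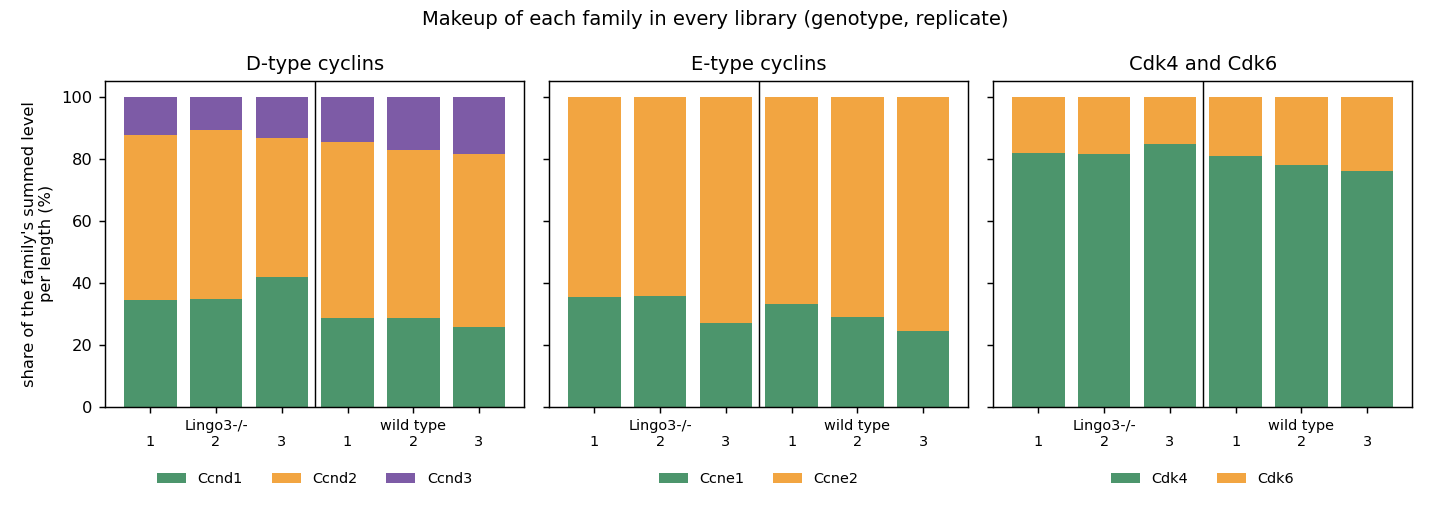
Share of each family's summed level per kilobase of exon (union of exons, on which the percentages depend), in percent, in each Lingo3-/- and wild type library (bars, replicates 1 to 3). The Ccnd1 share is 34.3 to 41.8% in knockout and 25.8 to 28.7% in wild type, and the Cdk4 share is 81.5 to 84.7% and 76.0 to 80.7%.

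Of the kinases that D-type cyclins activate, Cdk4 (ENSMUSG00000006728, chromosome 10 from 127063534 to 127067920, plus strand) rose. It had 50.2, 58.7 and 56.9 CPM in knockout and 35.3, 35.9 and 31.7 CPM in wild type. All knockout libraries were far above the wild type range. The log2 fold change was 0.69 ± 0.10 (SE, 95% interval 0.47 to 0.90, adjusted p = 0.00194 by edgeR), which is 1.61-fold, and the call held in all 16 alternatives, with log2 fold changes of 0.48 to 0.97.

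The 250 bases before the RefSeq start of Cdk4 are shown because Cdk4 is a called gene whose upstream stretch is dense in 1 short motif. Capitals mark the letters CACGTG, the E-box that Myc and related factors bind, which reads the same on both strands and overlaps none of its own copies. The matching stretch of Cdkn1b, which did not pass the test, follows for comparison. Both are from RefSeq on GRCm38.p6, plus strand, at chr10:127063285-127063534 and chr6:134920151-134920400.
Cdk4: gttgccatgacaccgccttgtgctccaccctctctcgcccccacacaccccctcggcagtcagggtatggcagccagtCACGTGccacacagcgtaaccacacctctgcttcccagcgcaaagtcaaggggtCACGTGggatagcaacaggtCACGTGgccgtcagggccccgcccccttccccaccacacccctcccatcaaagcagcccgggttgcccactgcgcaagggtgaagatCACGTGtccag
Cdkn1b: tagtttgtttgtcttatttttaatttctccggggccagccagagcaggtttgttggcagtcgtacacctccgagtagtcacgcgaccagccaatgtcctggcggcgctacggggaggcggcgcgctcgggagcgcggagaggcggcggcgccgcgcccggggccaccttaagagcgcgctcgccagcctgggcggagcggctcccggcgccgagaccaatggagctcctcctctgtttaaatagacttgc

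The Cdk4 stretch held CACGTG 4 times and the Cdkn1b stretch held none. The stretch of Cdk6 held 1 copy, and those of Ccnd3, Ccne1, Cdk2 and E2f1 held none. All 250 bases of the E2f1 stretch lie in exons of E2f1 in GENCODE M21, so by that annotation it is not upstream sequence. Of the Cdk2 stretch 105 bases lie in exons of Pmel. In the other stretches at most 57 bases (Cdk6) lie in exons, those of the same gene. At least 1 copy stood in 6.02% of 32851 such stretches across the genome, and at least 4 copies in 0.0213%, which are 7 stretches of 5 genes. Besides Cdk4 these were Lamp1, Mfsd1, Nxf2 and Gm40008, a motif and a set chosen after the Cdk4 sequence was seen. Mfsd1 rose (log2 fold change 0.69, edgeR adjusted p = 0.00253), and Lamp1 did not pass (0.32, edgeR adjusted p = 0.101). Nxf2 was not tested, at a mean of 0.0177 CPM in knockout and 0.0282 CPM in wild type, and Gm40008 has no value here. Whether the motif goes with a change was not tested. The match describes letters and shows no binding. The table held stretches for 7 of the 10 genes, with none for Ccnd1, Ccnd2 and Ccne2.

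Cdk6 (ENSMUSG00000040274, chromosome 5 from 3341485 to 3531008), the other partner of D-type cyclins, had 47.7, 57.3 and 44.1 CPM in knockout and 36.2, 43.4 and 43.3 CPM in wild type. The groups did not overlap, yet knockout replicate 3 stood only just above wild type replicate 2. The log2 fold change of 0.28 ± 0.12 (SE, 95% interval 0.02 to 0.54) did not pass (edgeR adjusted p = 0.127), and it was 0.169 without knockout replicate 2. Reads of Cdk4 per read of Cdk6 were 1.05, 1.02 and 1.29 in knockout and 0.974, 0.826 and 0.733 in wild type, without overlap, a difference in mean log2 ratio of 0.41 (exact permutation p = 0.1, adjusted 0.12).

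Cdk2 (ENSMUSG00000025358, chromosome 10 from 128697939 to 128705031), the kinase of cyclin E, had 12.5, 18.1 and 14.4 CPM in knockout and 12.3, 15.3 and 11.97 CPM in wild type. The groups overlapped, and in each the second replicate was the highest. The log2 fold change was 0.18 with a 95% interval of -0.15 to 0.52 (edgeR adjusted p = 0.442), and it was 0.023 without knockout replicate 2, 0.310 without knockout replicate 1 and 0.330 without wild type replicate 2.

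The E-type cyclins, which activate Cdk2 at the G1/S boundary, were higher in every knockout library than in every wild type library without passing the test. Ccne1 (ENSMUSG00000002068, chromosome 7 from 38097984 to 38107534) had 3.60, 4.56 and 3.44 CPM in knockout, from 70, 86 and 43 counts, and 2.85, 2.41 and 2.08 CPM in wild type, from 61, 64 and 48 counts. Its log2 fold change was 0.67 ± 0.22 (SE, 95% interval 0.19 to 1.14), close in size to that of Cdk4 but with an SE of 0.22 against 0.10, on few counts (edgeR adjusted p = 0.0583). Ccne2 (ENSMUSG00000028212, chromosome 4 from 11191351 to 11204779) had 8.60, 10.9 and 12.2 CPM in knockout and 7.53, 7.84 and 8.46 CPM in wild type. The lowest knockout value lay next to the highest wild type value, and the log2 fold change was 0.40 ± 0.15 (SE, 95% interval 0.07 to 0.74, edgeR adjusted p = 0.0934). Of the fits without single libraries, only that without knockout replicate 1 passed for Ccne2 (edgeR adjusted p = 0.0316). Over these fits its log2 fold change ran from 0.297 to 0.542, with edgeR adjusted p up to 0.281. Reads of Ccne1 per read of Ccne2 overlapped between the genotypes (0.419, 0.420 and 0.281 in knockout, 0.379, 0.308 and 0.246 in wild type; exact permutation p = 0.3, adjusted 0.30), with a log2 difference of 0.26 that ran from 0.104 to 0.454 without single libraries.

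**Figure D3:**
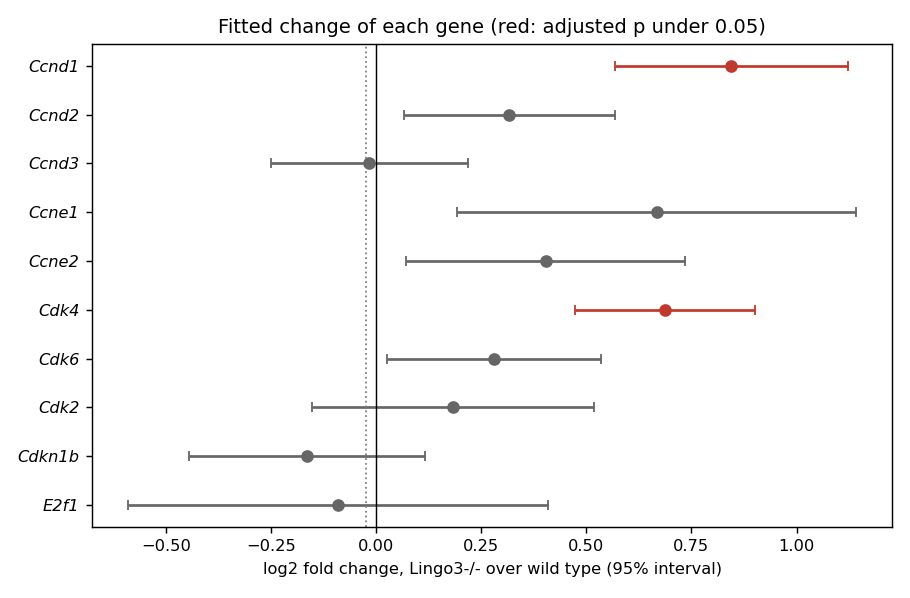
Fitted log2 fold change, Lingo3-/- over wild type, of each gene with its 95% interval (unadjusted); red marks an adjusted p under 0.05 and the dotted line the median of all genes tested (-0.03). Ccnd1 at 0.84 and Cdk4 at 0.69 are the red points, and the intervals of Ccnd3, Cdk2, Cdkn1b and E2f1 include 0.

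Cdkn1b (ENSMUSG00000003031, chromosome 6 from 134920401 to 134925513), the only CDK inhibitor among the 10, had 54.6, 73.5 and 80.5 CPM in knockout and 76.7, 79.2 and 77.7 CPM in wild type. The wild type libraries stood within a narrow band, whereas the knockout libraries spread to both sides of it, with replicate 1 low. The log2 fold change was -0.17 with a 95% interval of -0.45 to 0.12 (edgeR adjusted p = 0.406). Without knockout replicate 1 it was -0.011 and without replicate 3 -0.278, and its sign turned with library totals only (0.11). Set against the inhibitor, reads of Ccnd1 per read of Cdkn1b were 0.541, 0.412 and 0.443 in knockout and 0.261, 0.232 and 0.189 in wild type, the widest difference of the 6 ratios at 1.04 on the log2 scale. Reads of Ccne1 per read of Cdkn1b were 0.0660, 0.0621 and 0.0427 in knockout and 0.0372, 0.0305 and 0.0268 in wild type, a log2 difference of 0.84. In both ratios the genotypes did not overlap (exact permutation p = 0.1, adjusted 0.12).

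E2f1 (ENSMUSG00000027490, chromosome 2 from 154559407 to 154569892), the factor released from the retinoblastoma protein, was the lowest of the 10. It had 48, 45 and 24 counts in knockout and 44, 69 and 60 counts in wild type, or 2.47, 2.39 and 1.92 CPM against 2.06, 2.60 and 2.60 CPM. The groups overlapped, and the log2 fold change of -0.09 had a 95% interval of -0.59 to 0.41 (edgeR adjusted p = 0.820), so that a change of moderate size in either direction was not detectable at this depth.

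Levels of different genes were compared per kilobase of exon. In knockout Cdk4 (17.0 ± 1.37 CPM per kilobase, SD, n = 3) and Cdkn1b (15.3 ± 2.94) headed the order with overlapping ranges. In wild type Cdkn1b (17.1 ± 0.271) stood apart above Cdk4 (10.6 ± 0.686). Ccnd2 (9.31 ± 1.08 in knockout, 7.49 ± 0.851 in wild type) and Ccnd1 (6.76 ± 0.712 and 3.75 ± 0.582) came next in both genotypes, each apart from its neighbours in the order. In wild type the lowest Ccnd1 library (3.113) stood only just above the highest Cdk6 library (3.105). Below them Cdk6, Ccne2, Cdk2 and Ccnd3 lay between 2.22 and 3.55 CPM per kilobase in knockout, neighbour overlapping neighbour, and between 2.13 and 2.93 in wild type, where Cdk6 stood apart from Ccne2. Ccne1 (1.45 ± 0.228 and 0.920 ± 0.145) and E2f1 (0.716 ± 0.0943 and 0.767 ± 0.0997) were last, apart in knockout and overlapping in wild type. Averaged over the 6 libraries, Cdkn1b stood first and Cdk4 second, and with the longest transcript as length these exchanged places and Ccnd3 moved to the fifth.

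Parts of these genes lie opposite other genes, and although the library kit marks strand, the sources used here do not say how strand was counted, so reads of shared stretches cannot be assigned. The exons of Cdk4 share 641 of 3249 bases (19.7%) with Tspan31 on the other strand. Tspan31 had 382, 386 and 256 counts in knockout and 349, 401 and 371 in wild type, and it rose by 0.35 ± 0.10 on the log2 scale (edgeR adjusted p = 0.0313). Ccnd1 shares 1100 of 4709 exon bases (23.4%) with LTO1, whose log2 fold change was -0.17 (edgeR adjusted p = 0.472). Ccne2 shares 17.4% of its exon bases with Ints8, and the shares of Ccnd2, Ccnd3, Cdk2 and Cdk6 with opposite genes were 0.547 to 4.11% for each such gene.

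The genes with the most similar profile over the 6 libraries were found by the root mean square difference of centred log2 CPM, among 8275 genes with a mean of at least 10 CPM. Nearest to Ccnd1 were Kdelr2, Lman1 and Prcp (0.04 to 0.07), and nearest to Cdk4 were Larp4, Hdgf and Cct2 (0.02 to 0.03). For Ccnd2 they were Ltv1, Iars and Ephb3, for Ccnd3 Stk11, Arid1b and Sesn1, for Cdk2 Cks2, Rcan3 and Tyms, for Cdk6 Aspm, Tap1 and Stau2, and for Cdkn1b Zfp946, 1110059E24Rik and Atp5k, at 0.03 to 0.08. Ccne1, Ccne2 and E2f1 had means below that level and were not compared. Among the 10 genes themselves Cdk4 was nearest to Ccne1 (0.14) and to Ccnd1 (0.15).

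The surrounding pathway was described through 7 lists chosen with earlier results of these data known. Of 5 tested CDK inhibitors other than Cdkn1b, 0 rose and 0 fell (median log2 fold change -0.20). Cdkn1a (p21), a p53 target, stood at -0.41 on the log2 scale (edgeR adjusted p = 0.151), and Cdkn2b (p15), which blocks Cdk4 and Cdk6, had -0.20 (adjusted p = 0.315). Cdkn2a was not tested, with a mean of 0 CPM in knockout and 0.0289 CPM in wild type. Of the 3 pocket proteins that E2F factors bind, 0 changed (median -0.09), with Rb1 at -0.09 (edgeR adjusted p = 0.549) and Rbl2 at -0.11 (adjusted p = 0.522).

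Of 9 other E2F and DP factors, 1 rose and 0 fell (median 0.15), a share near the 9.43% of all genes that rose. With library totals only 6 rose, beside 32.1% of all genes, and with pan-epithelial scaling 0, beside 1.8%. The 1 gene was Tfdp1, the DP partner that E2F factors need to bind DNA, at 37.5 CPM in knockout and 28.4 CPM in wild type on average (log2 fold change 0.40, edgeR adjusted p = 0.0115). Its relative Tfdp2 had 0.15 (adjusted p = 0.262). Of 6 genes of the CDK-activating kinase and the Cdc25 phosphatases, which switch CDKs on, 0 changed (median 0.20), with Cdc25a at -0.02 (adjusted p = 0.948) and Cdk7 at 0.19 (adjusted p = 0.228). Of 10 genes of the ubiquitin ligases that remove G1 cyclins and Cdkn1b, 0 changed (median 0.04), with Skp1 at -0.000834 (adjusted p = 0.998) and Cul1 at 0.09 (adjusted p = 0.520). With upper-quartile factors 2 of them were lower, beside 8.1% of all genes, and with pan-epithelial scaling 1, beside 10.8%. When wild type replicate 1 was left out 1 was lower, beside 5.12%, and with library totals only 4 were higher, beside 32.1%. Fbxw7 (-0.30, edgeR adjusted p = 0.0767) and Ambra1 (-0.29, adjusted p = 0.0815) had all knockout libraries below all wild type libraries, beside 16% of all genes. Cks1b (0.41, edgeR adjusted p = 0.140) and Fbxo4 (0.29, adjusted p = 0.242) had them all above, beside 19.7%. Fbxw7, Ambra1, Cks1b and Fbxo4 were named after their values were seen. The signs of these 5 medians were not stable to scaling: with library totals only the other CDK inhibitors stood at 0.09 and the pocket proteins at 0.20, and with pan-epithelial scaling the E2F and DP factors stood at -0.04 and the ligases at -0.16.

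**Figure D4:**
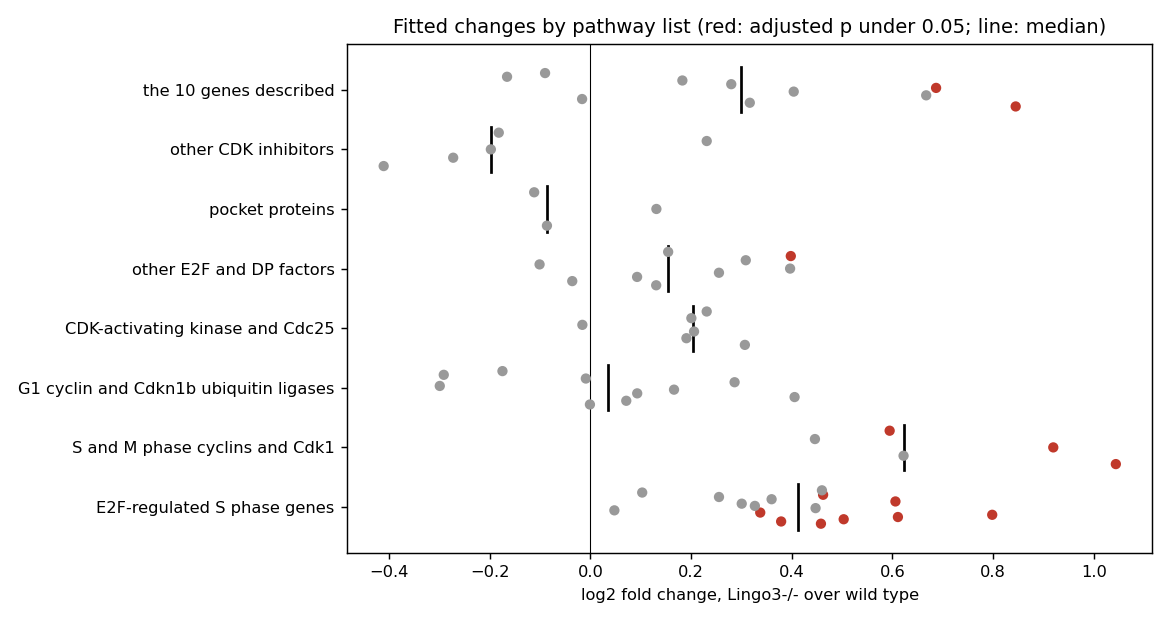
Fitted log2 fold changes, Lingo3-/- over wild type, of the 10 genes described (top row) and of the tested genes of each pathway list (points; red marks an adjusted p under 0.05) with the list's median (line). The 2 lists at the bottom, of S and M phase cyclins with Cdk1 and of E2F-regulated genes of DNA synthesis, have medians of 0.62 and 0.41. The list of other CDK inhibitors has -0.20.

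Some cyclins of S and M phase, Cdk1 and several genes of DNA synthesis rose. Of 5 genes, the cyclins Ccna2, Ccnb1, Ccnb2 and Ccnf with Cdk1, 3 rose and 0 fell (median 0.62, beside 9.43% of all genes tested that rose). Ccna2, the cyclin of S phase, rose by 1.04 ± 0.12 (SE, log2, edgeR adjusted p = 0.000917) and Ccnb2, a mitotic cyclin, by 0.92 ± 0.14 (adjusted p = 0.00216). Cdk1, the mitotic kinase, rose by 0.59 ± 0.14 (adjusted p = 0.0174). The cyclins Ccnb1 (0.62, edgeR adjusted p = 0.0673) and Ccnf (0.45, edgeR adjusted p = 0.172) did not pass. Over the scalings the count of these 5 genes that rose ran from 2 to 5. It was 2 with pan-epithelial scaling, beside 1.8% of all genes, and 5 with library totals only, beside 32.1%. Of 16 genes of DNA synthesis that E2F factors are known to regulate, 8 rose and 0 fell (median 0.41). The count was 3 without knockout replicate 3 or wild type replicate 3, beside 3.98% and 5.61% of all genes that rose. It was 4 without knockout replicate 2, beside 5.05%, and 5 without wild type replicate 2, beside 6.56%. With library totals only it was 15, beside 32.1%, and with libraries scaled on the pan-epithelial genes 1, beside 1.8%. The largest rises were in the helicase subunits Mcm6 (0.80), Mcm5 (0.61) and Mcm4 (0.50) and the ribonucleotide reductase subunit Rrm1 (0.61).

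Marker transcripts of other cell types were counted in the same libraries, without a test of cell makeup. Of 14 T cell markers 0 rose and 12 fell, beside 9.43% and 5.97% of all genes, with a summed level of 60.6 to 110 CPM in knockout and 190 to 206 CPM in wild type. Cd3e stood at 6.91 ± 1.91 CPM in knockout and 13.8 ± 1.54 CPM in wild type (SD, n = 3; log2 fold change -1.001, edgeR adjusted p = 0.00687). Cd8a stood at 19.96 ± 7.33 CPM in knockout and 39.1 ± 4.29 CPM in wild type (-0.98, edgeR adjusted p = 0.0695). Of 10 B cell and plasma cell markers 0 rose and 5 fell, at 32.0 to 40.1 CPM in knockout and 61.5 to 127 CPM in wild type. Of them 1 fell without knockout replicate 2 or 3, beside 2.66% and 2.31% of all genes. Without wild type replicate 2 or 3 it was 3, beside 3.5% and 4.46%, and without wild type replicate 1 it was 8, beside 5.12%. Ccnd2, Ccnd3, Cdk6 and Cdkn1b are genes that lymphocytes also express, and the part of the lymphocyte difference in their values was not tested.

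Of 8 crypt stem cell markers 6 rose and 0 fell, at 511 to 612 CPM in knockout and 289 to 311 CPM in wild type, beside 9.43% of all genes that rose. Most of this summed level was Slc12a2, at 331 to 399 CPM in knockout and 159 to 175 CPM in wild type. With pan-epithelial scaling 3 of the 8 rose, beside 1.8% of all genes. Without knockout replicate 2 or 3 it was 4, beside 5.05% and 3.98%. Lgr5, the stem cell receptor, had 10.2 CPM in knockout and 6.93 CPM in wild type on average (log2 fold change 0.56, edgeR adjusted p = 0.0447). Of 8 goblet cell markers 3 rose and 0 fell, and of 8 absorptive colonocyte markers 1 rose and 1 fell. Over all genes 9.43% rose and 5.97% fell. Of 10 macrophage and dendritic cell markers 1 rose and 1 fell, of 8 fibroblast markers 0 rose and 1 fell, and of 7 tested smooth muscle and endothelial markers 0 rose and 3 fell. Single libraries moved several of these counts. Without knockout replicate 2, 4 macrophage markers rose and 0 fell, beside 5.05% and 2.66% of all genes. Without knockout replicate 1 the macrophage median was 0.01 against 0.71 over all libraries. Without wild type replicate 3, 4 fibroblast markers fell, beside 4.46%, and without wild type replicate 2, 3 absorptive markers fell, beside 3.5%. Goblet markers that rose numbered 2 without knockout replicate 2 or wild type replicate 3, beside 5.05% and 5.61% of all genes. With library totals only they numbered 6, beside 32.1%. The summed levels of the macrophage, fibroblast and smooth muscle lists in knockout and wild type were 67.2 to 237 and 88.8 to 107 CPM, 254 to 517 and 377 to 1117 CPM, and 18.3 to 19.7 and 23.2 to 29.4 CPM. No gene of these marker lists was at 0 in all libraries. In bulk RNA more dividing crypt cells and more transcript per cell cannot be told apart, and the part of cell makeup in the rises of Ccnd1 and Cdk4 was not tested.

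Among the pan-epithelial markers 1 of 10 rose and 0 fell. The count of risers was 0 without knockout replicate 3, beside 3.98% of all genes. It was 2 without knockout replicate 1, beside 9.12%, and 3 without wild type replicate 1, beside 10%. Epcam had 919 CPM in knockout and 740 CPM in wild type on average (log2 fold change 0.31, edgeR adjusted p = 0.158). With libraries scaled on the summed counts of these 10 genes, which put the all-gene median at -0.22 on the log2 scale, Ccnd1 (0.64, adjusted p = 0.00779) and Cdk4 (0.48, adjusted p = 0.0275) were still called and the other 8 genes were not; 2 of the 10 were thus higher, beside 1.8% of all genes. With library totals only, which raised that median to 0.26, 6 of the 10 genes rose (Ccnd1, Ccnd2, Ccne1, Ccne2, Cdk4 and Cdk6), beside 32.1% of all genes. With no filter on low counts 4 rose, beside 6.8%, and at an adjusted p under 0.1 in edgeR 5 rose, beside 13.3%.

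**Figure D5:**
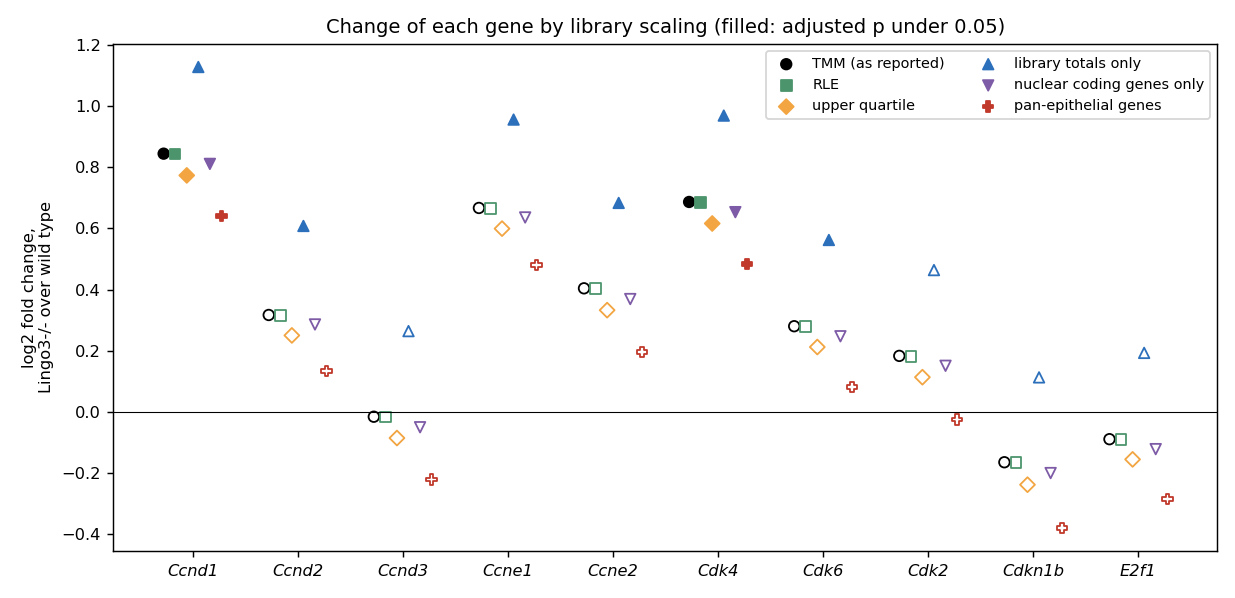
Log2 fold change, Lingo3-/- over wild type, of each gene under 6 ways of scaling the libraries (symbols; filled where the adjusted p is under 0.05). Ccnd1 and Cdk4 are filled under all 6, Ccnd2, Ccne1, Ccne2 and Cdk6 only with library totals, and Ccnd3, Cdk2, Cdkn1b and E2f1 change sign.

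In the authors' deposited table, made from the same libraries with DESeq2, Ccnd1 had a log2 fold change of 0.86 ± 0.16 (SE, adjusted p = 5.36e-06) and Cdk4 one of 0.70 ± 0.13 (SE, adjusted p = 7.00e-06). The other 8 genes had adjusted p-values of 0.0684 (Ccne1) or higher in the authors' deposited table, where 16.7% of genes were under 0.05.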

How the data were processed

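RNA-seq libraries from the washed epithelial fraction of the colon, 3 of Lingo3-/- and 3 of wild type mice, were grouped by genotype from the labels. Per the submitters' processing notes, reads were handled with Trimmomatic 0.39, STAR and HTSeq on GRCm38 and compared with DESeq2; the sources used here give no other versions, strand setting or annotation release. The count table the authors deposited lists unnormalized read counts for each Ensembl gene. Its HTSeq summary lines, 53.6 to 60.1% of each library's reads, were left out. The second deposited table gives, per the file headers, the authors' DESeq2 comparison: normalized counts per library (a signal), log2 fold changes, Wald statistics (a score) and p-values. It was used only to find the genes and to quote the authors' values.

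Genes were kept by filterByExpr (minimum count 10, minimum total 15; 16856 of 46078), scaled by TMM and tested with edgeR 4.0.16 (R 4.3.3), robust quasi-likelihood, 2-sided, genotype as only term, adjusted by Benjamini-Hochberg over all genes kept, threshold 0.05. The SE is the absolute log2 fold change over the root of the F statistic, and 95% intervals use the fit's degrees of freedom. CPM are per TMM-scaled library, log2 CPM used a prior count of 2, and lengths are unions of exons in GENCODE M21, which held 98.2% of the gene identifiers. Depth limits the low genes, and counting floors cover counting error only. No 2 libraries agreed within sampling noise (chi-square per degree of freedom at least 9.40). The code was tested on simulated counts.

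The 10 genes, the gene lists, the tests and the alternatives were chosen with earlier results of these data known. Named were all 10 genes, for each pathway list up to 4 genes (the largest changes past the threshold, or where fewer than 2 passed, those of highest level), the 3 nearest profiles, Epcam, Lgr5, Cd3e, Cd8a and Lingo3. Fbxw7, Ambra1, Cks1b, Fbxo4, Slc12a2, Ccnb1, Ccnf, Mfsd1, Lamp1 and Nxf2 were named in addition, after their values were seen. The alternatives were RLE, upper-quartile, no or pan-epithelial scaling, nuclear protein-coding genes only, DESeq2 1.42.0, limma-voom (limma 3.58.1), testing without a filter or with a mean CPM of 1 or more, a block on replicate number, leaving out each library, and thresholds of 0.1 and 0.01.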

Additional observations from a re-analysis of the deposited data

How the results depend on the processing

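Ccnd1 and Cdk4 kept their direction and their call in all 16 alternatives that gave them a value, and 0 of the 10 genes was called lower in any. The count of the 10 genes called was 6 with library totals only and 4 with no filter, beside 34.6% and 12.5% of all genes in either direction. It was 5 at an adjusted p under 0.1, beside 23.4%, and 2 to 3 without single libraries, beside 6.3 to 15.2%. The count over all genes was 5835 with library totals only, 3942 at an adjusted p under 0.1, 854 at 0.01 and 1124 (without knockout replicate 3) to 2686 (without knockout replicate 1) without single libraries; it was 2596 as reported, 1589 higher and 1007 lower. Upper-quartile scaling called 1137 higher and 1365 lower, library totals 5415 and 420, and pan-epithelial scaling 303 and 1819. The direction turned for Ccnd3 (0.26), Cdkn1b (0.11) and E2f1 (0.19) with library totals and for Cdk2 (-0.025) with pan-epithelial scaling, which by construction move all genes. Without single libraries Ccnd3 ran from -0.081 to 0.066 (without knockout replicate 2; 0.039 without wild type replicate 2) and E2f1 from -0.169 to 0.0063 (without knockout replicate 3); the cause was not tested. Depth limits Ccne1 and E2f1, with 24 to 86 counts a library.

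Libraries with the same replicate number did not deviate together (correlations of -0.01, -0.12 and -0.10), and those with different numbers ran from -0.118 to 0.219. With 3 libraries per genotype these correlations cannot decide whether the numbers pair the libraries. With replicate number as a block 2061 genes (12.2%) and 2 of the 10 were called.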
